A study of Mus musculus with 6 samples.

Results

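The PARP genes with antiviral roles, their ubiquitin ligase partner Dtx3l and the zinc finger gene Zc3hav1 were followed in C2C12 cells after knockdown of CNN3, with Parp1 as a family member that is not an interferon response gene. The set was defined by gene symbol as Parp1, Parp3, Parp9, Parp10, Parp11, Parp12, Parp14, Dtx3l and Zc3hav1, which are 9 of the 11835 genes and 21 of the 23949 matched transcripts of the deposited table. C2C12 is an established mouse myoblast line, and its cells were switched to horse serum medium to differentiate and are labelled as mouse myotube. All 6 libraries came from transfected cells, 3 with NC siRNA (siNC) and 3 with CNN3 siRNA (siCNN3), so both groups carried an siRNA and no untransfected cells were analysed here. Which CNN3 siRNA the sequenced cells received is not given in the sources used here, and the study's methods give a harvest time for differentiation analyses in general, not for the sequenced cells by name. The labels do not say whether the replicates were separate cultures, so p-values measure only the spread between these libraries, which may be technical.

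PARP proteins transfer ADP-ribose from NAD to proteins or nucleic acids, either as single units or as chains. PARP1 and PARP3 are known for the repair of DNA breaks, whereas several other members are induced by interferon and restrict viruses. PARP9 works as a pair with DTX3L, a ubiquitin ligase, and ZAP, the product of Zc3hav1, lacks the catalytic activity and binds CpG-rich viral RNA for decay.

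The values are FPKM, a level per transcript length and per sequenced fragments, summed here over the transcripts of a gene. Cnn3, the target, measured 62.8, 61.4 and 62.8 FPKM (siNC replicates 1 to 3) against 19.0, 39.2 and 25.6 FPKM (siCNN3 replicates 1 to 3), so each library went with its label. Its log2 fold change was -1.19 ± 0.24 (SE), and the adjusted p was 0.0669 with limma. FPKM summed to 322621 to 355591 per library, but read numbers are not given in the sources used here, which leaves the depth unknown and the counting error without an estimate. Of 10 muscle marker genes, 9 were listed, with a sum of 133.8 to 150.7 FPKM in siNC and 101.5 to 115.3 FPKM in siCNN3, most of it from Des. Of the 8 tested, 3 were called lower, beside 0.336% of tested genes, and Ckm was listed at 0 in siCNN3 replicates 1 and 3. Myf5 had a higher mean in siCNN3, 9.93 FPKM compared with 4.68 FPKM in siNC (adjusted limma p 0.238). Of 10 markers of macrophages and other blood cells, only Cd68 and Lyz2 were listed, with a sum of 4.72 to 10.2 FPKM in siNC and 2.81 to 4.04 FPKM in siCNN3. In bulk samples, fewer cells of a type and less RNA per cell cannot be told apart.

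The 7 genes other than Parp1 and Parp3 had higher mean FPKM in siCNN3 than in siNC, by 2.12-fold for Zc3hav1 to 10.5-fold for Parp14, while Parp1 and Parp3 were near equal between the groups. For 6 of the 7, namely Dtx3l, Parp14, Parp12, Parp11, Parp10 and Zc3hav1, every siCNN3 library was above every siNC library, which was so for 13.8% of the 11593 tested genes. Dtx3l alone passed the test across all genes, so 1 of the 9 was called higher, beside 1.73% of tested genes, and 0 of the 9 were called lower, beside 0.336% of tested genes. The unadjusted limma p was under 0.05 for all 7 and for neither Parp1 nor Parp3, and 9.94% of tested genes were higher at that level. The median log2 fold change of the 9 genes was 1.85, and that of all tested genes was 0.03. All 9 passed the filter on low values, also by their siNC mean alone.

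**Figure D1:**
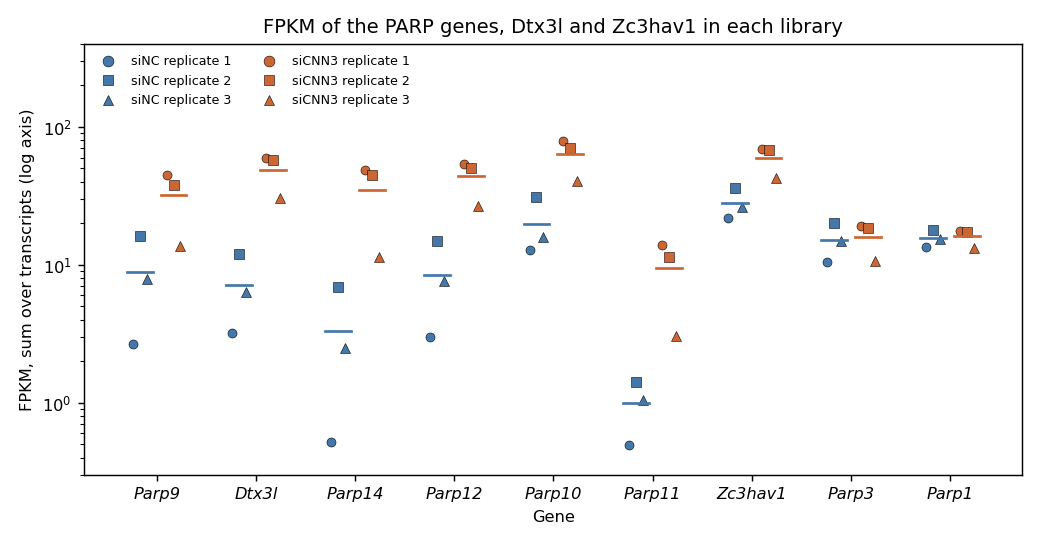
FPKM of the 9 genes (log axis, summed over transcripts) in each siNC library (blue) and siCNN3 library (orange), with the replicate number given by the marker shape and the group mean by a bar. The siCNN3 points of 6 genes lie above all siNC points, those of Parp9 overlap through replicate 3, and Parp3 and Parp1 lie in the same range in both groups.

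The libraries within a group were ordered alike in all 9 genes, Parp1 and Parp3 included. Replicate 2 was the highest and replicate 1 the lowest of the siNC libraries, and replicate 1 was the highest and replicate 3 the lowest of the siCNN3 libraries, an order found in 17.3% of all tested genes. The same order within both groups was seen in the mean of 10 interferon response markers, which stood at -1.59, 1.66 and -0.07 in siNC and at 5.28, 5.22 and 4.02 in siCNN3 replicates 1 to 3 (log2 of FPKM + 1, relative to the siNC mean). Of those markers 6 of 10 were called higher, beside 1.73% of all tested genes, and all 10 were higher in every siCNN3 library than in every siNC library, beside 13.8%. The part of this response, of the lower muscle markers or of the library order in the values of the PARP genes was not tested. The SD of the log2 value in siNC ran from 0.35 for Zc3hav1 and Parp11 to 1.19 for Parp14, compared with 0.19 for Parp1 and 0.44 for Parp3. In siCNN3 it ran from 0.38 for Zc3hav1 to 1.12 for Parp14, compared with 0.22 for Parp1 and 0.44 for Parp3.

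DTX3L is a deltex family ubiquitin ligase that acts with PARP9 in DNA damage and interferon responses. Dtx3l (chromosome 16, 35926511 to 35939151, minus strand of GRCm38) measured 3.21, 12.0 and 6.35 FPKM (siNC replicates 1 to 3) against 59.4, 57.2 and 30.7 FPKM (siCNN3 replicates 1 to 3). The lowest siCNN3 library was above the highest siNC library. The means were 7.20 ± 4.47 and 49.1 ± 16.0 FPKM (SD, n = 3 libraries each). Dtx3l rose by 2.70 on the log2 scale of FPKM + 1 (SE 0.44, 95% interval 1.66 to 3.74, adjusted p 0.0348 with limma). When each library was left out in turn the log2 fold change was 2.30 to 3.11 and the adjusted limma p 0.0241 to 0.151, and the call held only without siNC replicate 2 or without siCNN3 replicate 3.

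PARP9 carries macrodomains, which bind ADP-ribose, and with DTX3L modifies ubiquitin. Parp9 (chromosome 16, 35938470 to 35972605, plus strand) measured 2.66, 16.1 and 7.89 FPKM (siNC) against 44.5, 37.9 and 13.8 FPKM (siCNN3). Replicate 3 of siCNN3 lay below replicate 2 of siNC, so the groups overlapped. Its log2 fold change of 1.85 ± 0.63 (SE, 95% interval 0.35 to 3.35) did not pass the test, with an adjusted p of 0.217 (limma).

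Parp9 and Dtx3l were also set against each other in each library. The log2 ratio of Parp9 to Dtx3l, each as FPKM + 1, was -0.20, 0.39 and 0.27 in siNC and -0.41, -0.58 and -1.10 in siCNN3. Every siCNN3 ratio was below every siNC ratio, with a difference of means of -0.85 and an exact two-sided permutation p of 0.1, the smallest that 3 against 3 libraries can give. With the highest transcript of each gene in place of the sum, the difference was -0.97, the groups overlapped and the exact permutation p was 0.2. The genes lie head to head on opposite strands and share 682 bases, of which 367 are exonic in deposited transcripts of both genes, out of 4096 exonic bases of Parp9 and 5725 of Dtx3l. The strand setting of the libraries is not given in the sources used here, and without strand the reads of the shared bases cannot be told apart.

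The RefSeq promoter window of Dtx3l is shown because the start sites of both genes of the pair fall inside or close to it. It spans chr16:35938978-35939277 of GRCm38.p6 on the minus strand, from 250 bases before the RefSeq start to 50 bases from it onwards. Parp9-201 and Parp9-202 start inside it at positions 35939011 and 35939012 on the other strand, and Parp9-203 starts 541 bases from Parp9-201, inside the Dtx3l gene.
Dtx3l: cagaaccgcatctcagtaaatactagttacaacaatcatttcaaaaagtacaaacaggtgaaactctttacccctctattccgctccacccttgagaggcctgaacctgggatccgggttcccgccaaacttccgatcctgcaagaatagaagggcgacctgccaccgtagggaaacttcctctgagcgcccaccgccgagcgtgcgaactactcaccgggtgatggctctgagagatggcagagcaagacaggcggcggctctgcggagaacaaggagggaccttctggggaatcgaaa

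Of the transcripts of this pair, Dtx3l-201 (748 residues) held 93.6% to 97.6% of the Dtx3l FPKM in every library. Dtx3l-202 measured 0.190, 0.364 and 0.154 FPKM (siNC) against 1.88, 2.44 and 1.96 FPKM (siCNN3), without overlap and with an adjusted p of 0.0599 over all transcripts (limma), but it passed the filter on low values only through siCNN3. Parp9-203, which codes for the longest form with 830 residues, measured 1.31, 14.3 and 6.08 FPKM (siNC) against 34.5, 28.8 and 7.39 FPKM (siCNN3), so its groups overlapped as those of the gene did. Parp9-202, annotated as a retained intron, measured 0.735, 1.79 and 1.81 FPKM (siNC) against 8.65, 7.09 and 1.82 FPKM (siCNN3), with replicate 3 of both groups nearly equal. Parp9-201, with a coding sequence of 597 residues, was at 0.620 FPKM in siNC replicate 1, was listed at 0 in the other siNC libraries and was at 1.37, 1.96 and 4.56 FPKM in siCNN3. The order of the siCNN3 libraries was thus the opposite in Parp9-201 and in Parp9-203, where replicate 3 was the lowest.

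PARP14 is a large macrodomain protein that adds single ADP-ribose units and acts in interferon signalling. Parp14 (chromosome 16, 35832874 to 35871544, minus strand) lies near Dtx3l, 54966 bases away, and was listed with 1 transcript that codes for 1817 residues. It measured 0.519, 6.94 and 2.49 FPKM (siNC) against 48.5, 44.6 and 11.5 FPKM (siCNN3). The groups did not overlap, and the siNC libraries differed among themselves more than 10-fold. Parp14 had the largest log2 fold change of the 9, 3.13 ± 0.73 (SE, 95% interval 1.40 to 4.85), and did not pass the test (adjusted p 0.0913, limma).

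PARP12, a CCCH zinc finger protein related to ZAP but with catalytic activity, restricts several RNA viruses. Parp12 (chromosome 6, 39086410 to 39118349, minus strand), with 1 transcript, measured 2.97, 14.8 and 7.61 FPKM (siNC) against 54.3, 50.4 and 26.6 FPKM (siCNN3). All siCNN3 libraries were above all siNC libraries. The log2 fold change was 2.39 ± 0.51 (SE, 95% interval 1.18 to 3.61), with an adjusted p of 0.0767 (limma).

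PARP10 adds single ADP-ribose units and can interfere with virus replication. Parp10 (chromosome 15, 76231174 to 76243441, minus strand) measured 12.8, 31.0 and 15.8 FPKM (siNC) against 78.8, 70.8 and 40.5 FPKM (siCNN3), again without overlap. The log2 fold change was 1.67 ± 0.37 (SE, 95% interval 0.79 to 2.54), with an adjusted p of 0.0818 (limma). Parp10-202 held 73.7% to 97.8% of the FPKM in every library, and Parp10-201, which codes for a protein of the same 960 residues, was at 1.88 to 4.16 FPKM in siNC and 1.74 to 5.96 FPKM in siCNN3, with overlap.

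PARP11 adds single ADP-ribose units and is found at the nuclear envelope. Parp11 (chromosome 6, 127446840 to 127494261, plus strand) had the lowest mean of the 9 in both groups, with 0.495, 1.42 and 1.05 FPKM in siNC and 13.9, 11.5 and 3.03 FPKM in siCNN3. The siCNN3 libraries were above all siNC libraries, and replicate 3 stood far below the other siCNN3 libraries. The log2 fold change was 2.22 ± 0.49 (SE, 95% interval 1.05 to 3.39), with an adjusted p of 0.0824 (limma).

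Most of the higher Parp11 FPKM in siCNN3 was listed under 1 of its 2 transcripts. This split did not pass an exact permutation test, which with 3 against 3 libraries cannot give a p below 0.1. Parp11-202, which starts 6883 bases upstream of Parp11-201, measured 0, 0.50 and 0 FPKM (siNC) against 11.2, 10.1 and 2.55 FPKM (siCNN3). Parp11-201 measured 0.495, 0.923 and 1.05 FPKM (siNC) against 2.66, 1.36 and 0.480 FPKM (siCNN3), and its groups overlapped. Neither transcript passed the test over all transcripts, with an adjusted p of 0.112 for Parp11-202 and 0.753 for Parp11-201 (limma).

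Expressed as a share of the Parp11 FPKM, Parp11-202 made up 0%, 35.1% and 0% in siNC and 80.9%, 88.1% and 84.1% in siCNN3. The shares of the groups did not overlap and differed by 72.7 percentage points, with an exact two-sided permutation p of 0.1, the smallest possible, and an adjusted p of 0.3 over the 6 genes with 2 or more transcripts (exact permutation test). The 2 transcripts share 3254 exonic bases, out of 3414 in Parp11-202 and 3746 in Parp11-201, so the split rests on few bases of each, and an exact 0 can be a failed estimate. Parp11-202 passed the filter on low values only through siCNN3. By annotation Parp11-202 codes for 248 residues and Parp11-201 for 331.

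The RefSeq windows at the 2 Parp11 starts (GRCm38.p6, plus strand, 250 bases before the start and 50 from it onwards) are shown because the transcripts differ there. The upstream window, chr6:127446590-127446889, begins Parp11-202, with 42.0% G or C and 5 CpG. The downstream window, chr6:127453377-127453676, has its start 96 bases from that of Parp11-201, with 59.0% G or C and 25 CpG. Capitals mark a match to the core of the interferon-stimulated response element.
Parp11 upstream start: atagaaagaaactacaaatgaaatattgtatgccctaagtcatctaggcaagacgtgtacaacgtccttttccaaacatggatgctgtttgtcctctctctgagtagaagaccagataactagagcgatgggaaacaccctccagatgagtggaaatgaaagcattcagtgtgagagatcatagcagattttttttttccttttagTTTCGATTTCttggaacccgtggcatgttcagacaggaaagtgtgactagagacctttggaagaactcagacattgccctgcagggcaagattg
Parp11 downstream start: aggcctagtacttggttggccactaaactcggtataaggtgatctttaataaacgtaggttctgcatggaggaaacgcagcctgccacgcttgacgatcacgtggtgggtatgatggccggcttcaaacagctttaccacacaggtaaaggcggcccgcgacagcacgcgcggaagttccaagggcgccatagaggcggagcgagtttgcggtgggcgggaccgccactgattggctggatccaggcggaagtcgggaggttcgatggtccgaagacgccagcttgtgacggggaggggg

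Windows were held for 6 of the 9 genes, 7 windows in all, and were searched on both strands for GAAANNGAAA, the core of the interferon-stimulated response element. Only the upstream Parp11 window held it. The match lay on the minus strand from 44 to 35 bases before the start (TTTCGATTTC on the plus strand). Of 32851 mouse promoter windows of the same length, 3.44% held this motif. The windows were also searched for TTCNNNGAA, the core of the gamma-activated site (GAS), and again only the upstream Parp11 window held it. That match (TTCTTGGAA), not marked above, lay from 37 to 29 bases before the start and overlapped the first. Of the 32851 windows, 8.30% held the GAS core. A match describes letters and is not a binding site. Parp9, Parp10 and Parp14 are named only.

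ZAP is made in long and short forms that differ in their 3′ ends, and the long form carries the PARP-like domain. Zc3hav1 (chromosome 6, 38305286 to 38354603, minus strand) measured 22.0, 36.1 and 26.4 FPKM (siNC), the highest mean of the 9, against 68.8, 67.6 and 42.9 FPKM (siCNN3). The groups did not overlap. Its log2 fold change of 1.06 ± 0.25 (SE, 95% interval 0.47 to 1.64) was the smallest of the 7 antiviral genes, with an adjusted p of 0.0914 (limma).

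Zc3hav1-203, whose coding sequence of 996 residues is the longest, measured 19.0, 31.4 and 22.8 FPKM (siNC) against 57.4, 55.5 and 37.1 FPKM (siCNN3). Its share of the Zc3hav1 FPKM was 86.4%, 87.0% and 86.5% in siNC and 83.5%, 82.1% and 86.4% in siCNN3. Every siCNN3 share was below every siNC share, by 2.63 percentage points on average, and siCNN3 replicate 3 was below the lowest siNC share by less than the spread within siNC (exact permutation p 0.1, the smallest possible, adjusted p 0.3). Zc3hav1-201, which ends earlier and codes for 789 residues, measured 1.90, 2.78 and 0.423 FPKM (siNC) against 6.31, 7.23 and 3.18 FPKM (siCNN3). Most of the higher Zc3hav1 FPKM in siCNN3 was therefore in the long form.

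**Figure D2:**
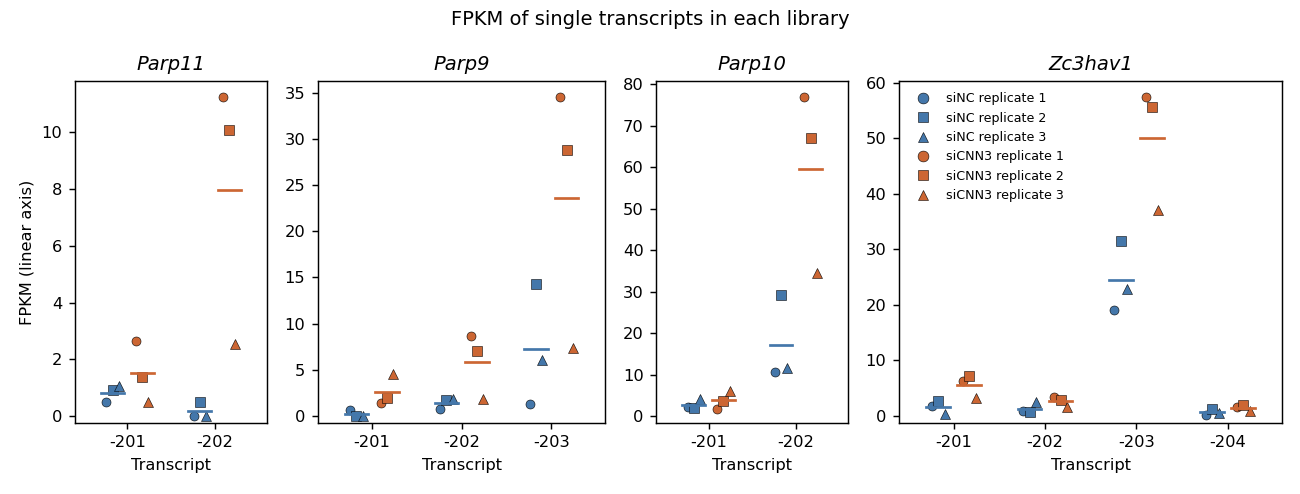
FPKM (linear axis) of the deposited transcripts of Parp11, Parp9, Parp10 and Zc3hav1 in each siNC library (blue) and siCNN3 library (orange), with replicate numbers as marker shapes and group means as bars. Parp11-202 lies at 0 to 0.50 FPKM in siNC and 2.55 to 11.2 FPKM in siCNN3, while Parp11-201 overlaps between the groups, and Zc3hav1-203 holds most of the Zc3hav1 FPKM in both groups.

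Over all 21 transcripts of the set, 19 passed the filter and 0 were called, beside 0.462% of the 21658 tested transcripts called higher. The unadjusted limma p was under 0.05 for 10 of the 19, all higher, beside 6.80% of tested transcripts higher at that level. In 10 of the 19 every siCNN3 library was above every siNC library, which was so for 10.4% of tested transcripts. Of these 10, 3 (Parp11-202, Parp9-201 and Dtx3l-202) passed the filter only through siCNN3, the group where they are high, so the count supports nothing for them, and the other 7 passed by their siNC mean alone. Parp3-208 and Parp3-209 were left out by the filter.

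PARP1 makes ADP-ribose chains at DNA breaks, and PARP3 adds single units there. Parp1 (chromosome 1, 180568924 to 180601254, plus strand) measured 13.5, 17.8 and 15.5 FPKM (siNC) against 17.7, 17.4 and 13.2 FPKM (siCNN3). Parp3 (chromosome 9, 106470322 to 106476949, minus strand) measured 10.5, 20.1 and 14.9 FPKM (siNC) against 19.0, 18.4 and 10.6 FPKM (siCNN3). The groups overlapped in both. The log2 fold change of Parp1 was 0.04 with a 95% interval of -0.36 to 0.44, and that of Parp3 was 0.08 with a 95% interval of -0.62 to 0.77, with adjusted p of 0.936 and 0.930 (limma). These intervals hold changes of up to 0.44 for Parp1 and 0.77 for Parp3 on the log2 scale, so smaller changes could not be detected. Parp3-203 held 63.3% to 74.7% of the Parp3 FPKM in every library, with overlap between the groups.

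Divided by Parp1 in the same library, 7 of the 8 other genes were higher in every siCNN3 library than in every siNC library, Parp9 included, which was so for 13.9% of all genes divided in this way. The log2 ratio of Parp9 to Parp1 was -1.98, -0.13 and -0.89 in siNC and 1.29, 1.08 and 0.06 in siCNN3, a difference of 1.81. With the highest transcript in place of the sum, Parp9 overlapped between the groups (exact permutation p 0.2) and 6 of the 8 remained apart. The difference in this ratio ran from 1.02 for Zc3hav1 to 3.09 for Parp14, and each of the 7 had an exact two-sided permutation p of 0.1, the smallest possible, and an adjusted p of 0.114 over 8 ratios. For Parp3 the difference was 0.04, with overlap and an exact permutation p of 0.9.

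**Figure D3:**
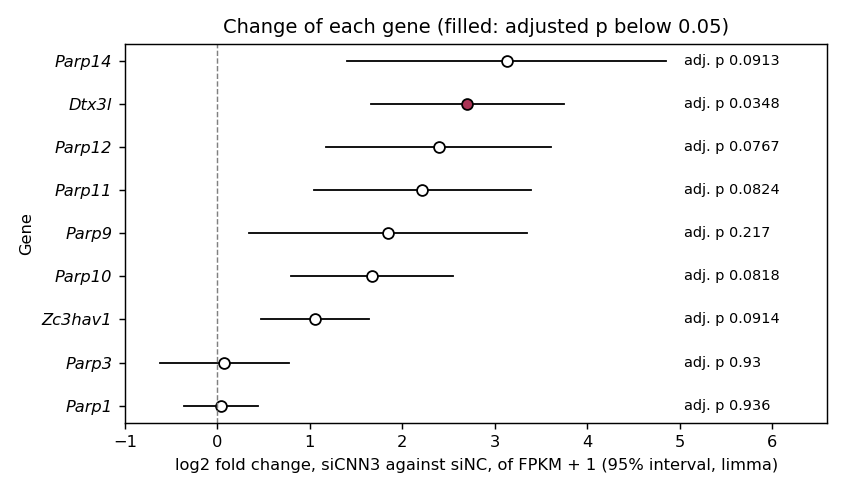
Log2 fold change of siCNN3 against siNC for each gene (limma on FPKM + 1), with 95% intervals as lines and the adjusted p beside each. The intervals of 7 genes lie above 0, those of Parp1 and Parp3 span 0, and Dtx3l is the filled point, the gene with an adjusted p of 0.0348.

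By mean FPKM, which is per length, the order in siNC was Zc3hav1, Parp10, Parp1, Parp3, Parp9, Parp12, Dtx3l, Parp14 and Parp11. In siCNN3 it was Parp10, Zc3hav1, Dtx3l, Parp12, Parp14, Parp9, Parp1, Parp3 and Parp11. Dtx3l stood below Parp1 and Parp3 in siNC by its mean and above both in siCNN3. The library ranges of all neighbours overlapped in both orders, but both genes of a pair were measured in the same libraries. Within libraries, 4 of the 8 neighbouring pairs kept their order in all 3 siNC libraries (Zc3hav1 over Parp10, Parp3 over Parp9, Dtx3l over Parp14 and Parp14 over Parp11). In siCNN3, 5 of the 8 did (Zc3hav1 over Dtx3l over Parp12 over Parp14, Parp9 over Parp1 and Parp3 over Parp11). The remaining pairs changed order between libraries.

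The genes most like 4 of the set were sought as those with the smallest root-mean-square distance between log2 profiles over the 6 libraries, each centred on its mean. For Dtx3l they were Ifi211 (0.125), Samd9l (0.138) and Ifih1 (0.157), and Parp12 was the 7th nearest while Parp9, its head-to-head neighbour, was the 60th. For Parp9 they were Apol6 (0.182), Tapbpl (0.245) and Stat2 (0.292). For Parp14 they were Gbp7 (0.202), Irgm1 (0.286) and Dhx58 (0.339). For Zc3hav1 they were Tars (0.0801), Cmtr1 (0.0934) and Ddias (0.0943), and Parp10, the nearest of the other 8, ranked 703.

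The other PARP family genes showed no call. Of 8 tested, 0 were called in either direction and 2 had an unadjusted limma p under 0.05, beside 16.1% of all tested genes in either direction. Their median change was -0.02 on the log2 scale. Parp2, which also answers DNA breaks, measured 5.997, 7.81 and 5.26 FPKM (siNC) against 14.9, 8.66 and 12.6 FPKM (siCNN3), a log2 fold change of 0.81 with an adjusted p of 0.140 (limma) and no overlap. Parp8 measured 10.7, 5.08 and 14.3 FPKM (siNC) against 3.63, 5.97 and 3.28 FPKM (siCNN3) (log2 fold change -0.99, adjusted limma p 0.250), with overlap. The deltex ligases Dtx2, Dtx3 and Dtx4 had log2 fold changes of -0.02, -0.20 and -0.28, and 0 of the 3 were called or had an unadjusted limma p under 0.05.

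Among 12 tested readers and erasers of ADP-ribose, 0 were called higher and 1 lower, beside 1.73% and 0.336% of all tested genes, with a median of 0.08. Chfr, a ubiquitin ligase that binds ADP-ribose chains, measured 3.85, 3.01 and 4.61 FPKM (siNC) against 1.48, 0.331 and 0.482 FPKM (siCNN3), and fell by 1.49 on the log2 scale (SE 0.27, adjusted p 0.0494, limma). That call held under 4 of the 15 alternatives that could test Chfr. Parg, which cuts ADP-ribose chains, measured 8.48, 11.8 and 7.28 FPKM (siNC) against 15.7, 12.5 and 14.4 FPKM (siCNN3) (log2 fold change 0.60, adjusted limma p 0.196).

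Of 12 ZAP cofactors and RNA decay genes, 2 were called higher and 0 lower, beside 1.73% and 0.336% of all tested genes, with a median of 0.13. In 4 of the 12 every siCNN3 library was above every siNC library, beside 13.8%. Trim25, the ubiquitin ligase that ZAP needs for its antiviral action, measured 8.22, 16.8 and 13.5 FPKM (siNC) against 43.9, 45.2 and 41.0 FPKM (siCNN3), and rose by 1.73 on the log2 scale (SE 0.24, adjusted p 0.0222, limma). Dcp2, which removes the cap of mRNA, measured 4.85, 5.87 and 5.07 FPKM (siNC) against 14.7, 13.8 and 12.0 FPKM (siCNN3), and rose by 1.21 (SE 0.14, adjusted p 0.0144, limma). Both calls were lost when replicate 3 of siNC, replicate 1 of siCNN3 or replicate 2 of siCNN3 was left out, at adjusted limma p up to 0.110 for Trim25 and 0.0875 for Dcp2. In both genes the siCNN3 libraries were closer to each other than in the antiviral PARP genes, and replicate 3 was near the other two. Khnyn, the nuclease cofactor of ZAP, was at 1.51 to 1.71 FPKM in siNC and 1.40 to 2.12 FPKM in siCNN3, with overlap.

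NAD is the substrate of the family, and of 10 tested genes of NAD supply and use 1 was called higher and 0 lower, beside 1.73% and 0.336% of all tested genes, with a median of 0.22. Nampt, the rate-limiting enzyme of NAD salvage, measured 19.5, 18.3 and 20.6 FPKM (siNC) against 48.5, 48.0 and 42.1 FPKM (siCNN3). It rose by 1.20 on the log2 scale (SE 0.12, adjusted p 0.00990, limma), and its libraries within each group were close together. The call was lost without siNC replicate 3 or siCNN3 replicate 2 (adjusted limma p up to 0.0603) and in a test of each gene by its own spread alone, in which 0 of all genes were called. Nnmt, which uses up nicotinamide, was at 0.369 to 0.995 FPKM in siNC and 1.07 to 2.44 FPKM in siCNN3 (log2 fold change 0.77, adjusted limma p 0.194). Of the 12 repair partners of PARP1 and PARP3, 0 were called and 3 had an unadjusted limma p under 0.05 (16.1% of all tested genes did), with a median of 0.13. The largest difference was in Xrcc5, a subunit of Ku, with a log2 fold change of -0.56 and an adjusted p of 0.106 (limma).

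The chain from the interferon receptor to the factor ISGF3, which drives many genes of this kind, had a median log2 fold change of 1.55 over 11 tested genes and 0 calls lower. Irf7, a factor that is itself induced, measured 0.796, 11.8 and 5.33 FPKM (siNC) against 130.8, 121.5 and 76.6 FPKM (siCNN3) and was called higher (log2 fold change 4.36, adjusted limma p 0.0305). That call was lost with a pseudocount of 0.1 (adjusted limma p 0.0506) and when any of the 3 libraries named for Trim25 was left out (up to 0.126). Usp18, an inhibitor of the receptor, measured 0.412, 17.3 and 2.91 FPKM (siNC) against 170.1, 167.2 and 66.8 FPKM (siCNN3) (log2 fold change 4.74, adjusted limma p 0.0525). Usp18 and Irf7 are also among the 10 interferon response markers above. The receptor genes Ifnar1 and Ifnar2 and the kinases Jak1 and Tyk2 had log2 fold changes of -0.31, 0.15, 0.13 and -0.16, all with overlap between the groups.

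**Figure D4:**
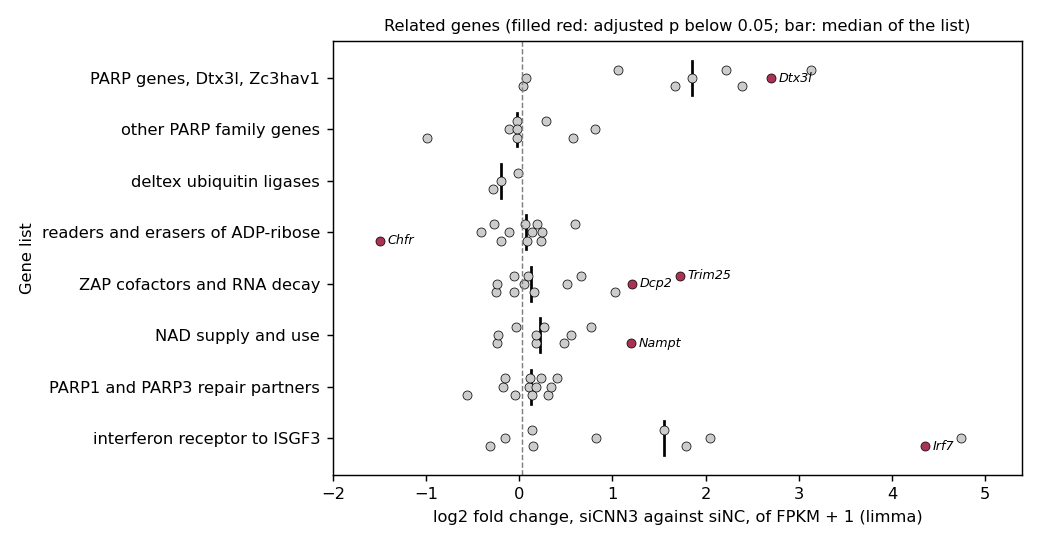
Log2 fold change of siCNN3 against siNC (limma on FPKM + 1) for the tested genes of the set and of 7 related lists that are reported here, with called genes in red, list medians as bars and the median of all tested genes as a dashed line at 0.03. The set and the list from the interferon receptor to ISGF3 have medians of 1.85 and 1.55, and the other 6 lists lie between -0.20 and 0.22.

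How many of the 9 genes were called depended on single libraries. Without siCNN3 replicate 3 there were 5 calls (Parp10, Parp11, Parp14, Dtx3l and Zc3hav1), beside 444 of all 11593 tested genes called higher. Without siNC replicate 2 there were 3 (Parp10, Parp12 and Dtx3l), beside 151 of all tested genes. Leaving out any other library gave 0 calls, beside 16 to 70 of all tested genes. With each library divided by its own Parp1 FPKM there were 5 (Parp10, Parp11, Parp12, Dtx3l and Zc3hav1), beside 244 of all tested genes. In the main fit 200 of all tested genes were called higher, so these counts also shifted over the whole series. The log2 fold changes of the 7 antiviral genes were above 0 under all 16 alternatives tried, and Parp9 was called under none of them.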

How the data were processed

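RNA of C2C12 cells was sequenced by the authors' service provider, and the authors deposited FPKM per Ensembl transcript for 24023 transcripts in 6 libraries. The submitters' processing notes name Bowtie 0.12.2 and the builds mm8 and mm10, without their roles. The program that estimated FPKM and the read numbers are not given in the sources used here.

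Identifiers without version were matched to GENCODE transcripts of GRCm38. Left out were 74 unmatched identifiers, with 0.159% to 0.220% of each library. FPKM were summed per gene symbol. The filter was a mean of 0.5 FPKM or more over the libraries. After a pseudocount of 1, the log2 FPKM went into limma (version 3.58.1, R version 4.3.3, mean-variance trend, Benjamini-Hochberg adjustment over all tested genes or transcripts, threshold 0.05). The pseudocount understates changes of low genes. The fit was tested on simulated data. Ratios and shares of transcripts were compared by exact two-sided permutation tests, which for 3 against 3 cannot give a p below 0.1. Python 3.11.15 was used for tables (pandas 2.3.3, numpy 2.4.6), permutation tests (scipy 1.17.1) and plots (matplotlib 3.10.9).

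All 9 genes are named, and of each related list the called genes and up to 3 with the largest change, while other genes of the lists named here were chosen after their values were seen. One item is not reported here. The genes and lists were chosen with earlier results of these data known. Promoter sequences are from RefSeq (GRCm38.p6). Alternatives were a pseudocount of 0.1, no filter or 5 FPKM, 3 scalings, the replicate number as a block, no trend, a Student test per gene, each library left out, and the highest transcript in place of the sum.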

Additional observations from a re-analysis of the deposited data

How the results depend on the processing

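The number of the 9 genes called higher was 1, and it was 5 with Parp1 scaling, 0 with the replicate block, 0 with a Student test per gene and 0 with the highest transcript in place of the sum, and 0 to 5 when each library was left out. Over all tested genes the number was 200, and in the same order of settings it was 244, 62, 0, 100 and 16 to 444. Of the related genes 5 were called higher, a number to be read beside these shifts over all genes. It was 0 under the replicate block, 0 under the Student test and 0 to 9 with a library left out (0 without siNC replicate 3 or siCNN3 replicate 2). Nampt, Trim25, Dcp2 and Irf7 were thus called neither with the block, where the adjusted limma p of Nampt was 0.0533, nor with the Student test. The 1 related gene called lower became 0 with a pseudocount of 0.1, no filter, a mean of at least 5 FPKM, the replicate block, no trend, the Student test or the highest transcript, 2 with median-of-ratios scaling and 2 with quantile normalization, and 0 to 1 with a library left out. Transcripts of the 9 genes called higher were 0, with 1 under Parp1 scaling, 1 without the trend and 0 to 1 with a library left out. In the Student test 0 of all genes were called, with 1800 at an unadjusted p under 0.05, 6 of the 9 among them. The cause of these shifts was not tested.

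The labels do not say whether libraries of the same number belong together. Deviations from the group means of same-numbered libraries correlated at -0.28, 0.31 and -0.02 across genes, and not every library correlated best with its own number. The deviations of the 3 libraries of a group sum to 0, so these correlations cannot decide on pairing. With the replicate block 62 genes were called higher and 6 lower over all genes, compared with 200 and 39 without it, and the adjusted limma p of Dtx3l was 0.0635, with 7 of the 9 at an unadjusted p under 0.05, as were 1479 of all genes. Over all genes 444 were called higher without siCNN3 replicate 3 and 16 without siNC replicate 3. With quantile normalization 93 genes were called lower.

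Directions turned only where the libraries of the groups overlapped. Parp1 was at -0.0477 and Parp3 at -0.00582 (log2) with quantile normalization, and with a library left out they ranged from -0.0543 to 0.17 and from -0.15 to 0.33. The difference in the Parp3 to Parp1 ratio ranged from -0.0934 to 0.16, that in the share of Parp3-203 from -3.65 to 2.04 points, of Parp9-203 from -13.9 to 6.02 points and of Dtx3l-201 from -1.88 to 0.0805 points. The median of all genes moved by less than 0.1 on the log2 scale under every scaling, between -0.05 and 0.03. Of the results under alternatives, 69 counts moved by over 1.5 times or to or from 0, 45 values lost a call, 10 gained one and 18 turned in direction. The other 536 were labelled the same, but they do not measure robustness. They include counts within 1.5 times of the main count or at 0 in both. They also include ratios and shares whose exact permutation p cannot fall below 0.1. FPKM without read numbers limits what can be said of Parp11 and other low genes.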
